A study of Mus musculus with 8 samples.

Results

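The LIM homeobox genes described here are *Lhx1*, *Lhx2*, *Lhx3*, *Lhx4*, *Lhx5*, *Lhx6*, *Lhx8*, *Isl1*, *Isl2* and *Lmx1b*, 10 of the 33971 genes in a table of read counts from mouse embryo brains. The brains came from wild-type (WT) embryos at E14.5 (named by days of gestation) whose mothers, also WT and mated with WT males, received a choline-deficient diet (CDD, 4 brains) or a normal chow diet (ND, 4 brains). Diet is the only stated difference between the groups, and no genotype other than WT was used in them. Poly-A RNA of each brain, described as whole, was sequenced without separating cells. Every value is therefore an average over the cell types in the tissue taken. The design text starts the diets on the day of mating, whereas a legend in the supplement of the study describes feeding before mating. The labels do not say how many dams or litters the 4 brains of a diet came from, so the tests below measure the spread between these brains, and diet and dam cannot be told apart.

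LIM-homeodomain proteins are transcription factors that carry a pair of LIM domains, which bind other proteins, and a homeodomain, which binds DNA. LIM domains bind the adaptor Ldb1 or Ldb2, which dimerizes and joins factors into complexes, while LIM-only (Lmo) proteins compete for the same adaptor. In the nervous system the combination of LIM-homeodomain proteins in a newborn neuron is a classical code for its identity, as worked out for motor neurons (*Isl1*, *Isl2*, *Lhx3*, *Lhx4*), V2 interneurons (*Lhx3*, *Lhx4*), forebrain interneurons and cholinergic neurons (*Lhx6*, *Lhx8*, *Isl1*) and serotonergic neurons (*Lmx1b*). The 10 genes were chosen by name for this shared role, after the values in these same brains had been seen. Their differences between the diets are therefore given as a description, with no test of their own.

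Libraries held between 31770217 and 43121170 counts, and replicate libraries differed by far more than sampling noise (chi-square per degree of freedom between 3.76 and 22.7). The library labelled CDD replicate 2 stood apart. The 16 listed *Hox* genes mark hindbrain and spinal cord. In that library they summed to 140.4 CPM (counts scaled to library size). Their sum was 0.163 to 2.87 CPM in the other CDD brains and 0.0938 to 0.723 CPM in the ND brains. Transcripts of these genes were thus scarce in the other libraries, and how much hindbrain each library held was not tested. Each member's fold change is given with and without CDD replicate 2, and for other genes where its removal changed a call. The list of 9 neuron markers summed to 5794 to 6476 CPM in CDD and 5873 to 6095 CPM in ND brains, and the list of 9 neural progenitor markers to 1998 to 2320 CPM in CDD and 1775 to 1889 CPM in ND brains. The list of 8 erythroid markers, a sign of blood in the tissue, summed to 143.9 to 255.02 CPM in CDD and 52.7 to 115.7 CPM in ND brains. The part of progenitor number and of blood in the results below was not tested. In bulk RNA, fewer cells of a type and less RNA per cell cannot be told apart.

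*Lhx4*, *Lmx1b* and *Lhx1* were higher in every CDD brain than in any ND brain, and *Lhx6* was lower in every CDD brain than in any ND brain. *Lhx8* was higher on average in CDD brains, with a slight overlap. The diets overlapped for *Lhx2*, *Lhx5*, *Isl1*, *Isl2* and *Lhx3*. Thus 4 of the 10 genes did not overlap between the diets, where 15.0% of all 19367 genes tested did not overlap. A test across all genes, edgeR's quasi-likelihood test with Benjamini-Hochberg adjustment at 0.05, could be fitted for 9 of the 10, since *Lhx3* fell under the filter on low counts. In that test *Lhx1*, *Lhx4* and *Lhx8* were called higher in CDD (4.24% of all genes tested) and *Lhx6* was called lower (4.59%). Without CDD replicate 2, *Lhx1*, *Lhx4*, *Lhx8* and *Lmx1b* were called higher (3.15% of all genes) and no member was called lower (3.99%). The genes were selected on this contrast, so nothing is read from these counts, or from the calls of members in the further fits below.

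**Figure D1:**
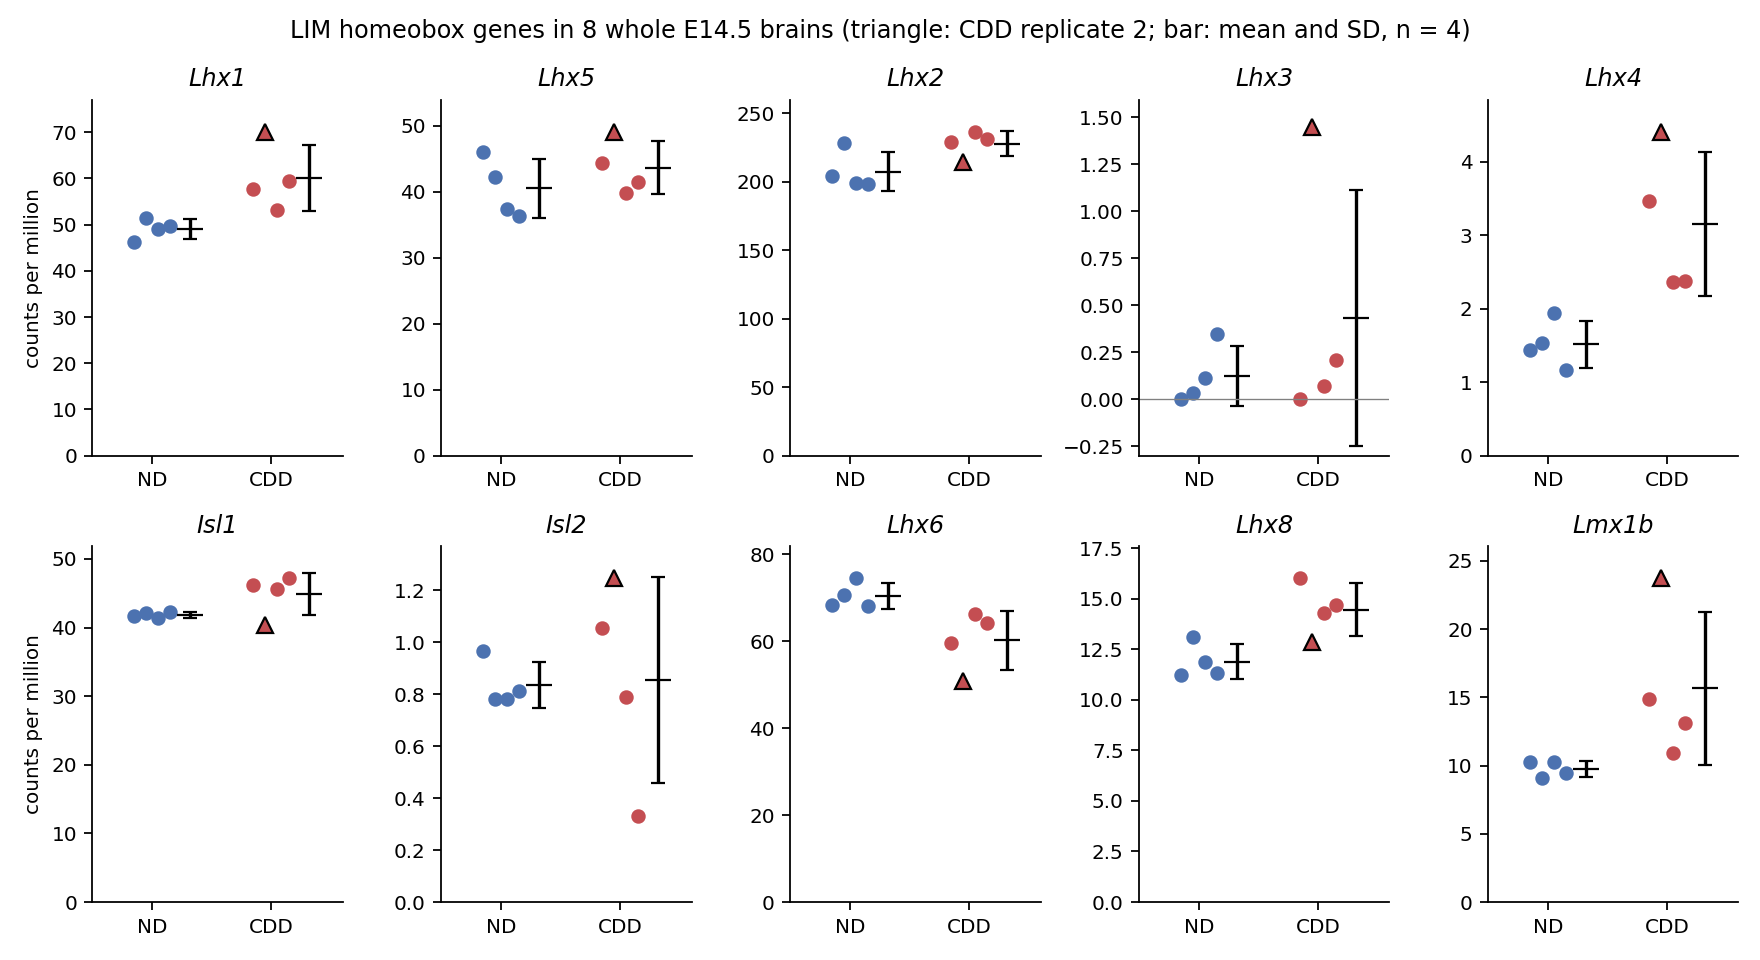
CPM (y axis) of the 10 LIM homeobox genes in each of the 4 ND (blue) and 4 CDD (red) brains, with the mean and SD (n = 4) as a black bar and CDD replicate 2 as a triangle. The CDD points of *Lhx1*, *Lhx4* and *Lmx1b* all lie above the ND points and those of *Lhx6* all lie below, and the triangle is the highest point of 6 genes and the lowest CDD point of the other 4.

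CDD replicate 2 was the highest of the 8 brains for 6 of the 10 genes, *Lhx1*, *Lhx3*, *Lhx4*, *Lhx5*, *Isl2* and *Lmx1b*. Among all genes tested, 2221 (11.5%) were highest in that brain. For the other 4 genes, *Lhx2*, *Lhx6*, *Lhx8* and *Isl1*, it was the lowest of the CDD brains. The share of all genes that were lowest of the CDD brains there was not counted. Against the ND brains, *Lhx6* and *Isl1* in CDD replicate 2 were below all of them, and *Lhx2* and *Lhx8* lay within their range. Whether the dissection of CDD replicate 2, the brain with the high *Hox* sum, reached further back was not tested.

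The start regions of 3 genes that were highest in CDD replicate 2 and higher in CDD (*Lhx1*, *Lhx4*, *Lmx1b*), and of the gene that was lower in CDD (*Lhx6*), are shown so that genes moving together and apart can be read side by side. Each is the 250 bases before a RefSeq transcription start (GRCm38.p6), 5′ to 3′ on the strand of the gene, and for *Lhx6* the first of 3 listed starts. Capitals mark matches on either strand to CCAAT (read as ATTGG on the other strand) and to GGGCGG.
*Lhx1*, chr11:84525535-84525784, minus strand: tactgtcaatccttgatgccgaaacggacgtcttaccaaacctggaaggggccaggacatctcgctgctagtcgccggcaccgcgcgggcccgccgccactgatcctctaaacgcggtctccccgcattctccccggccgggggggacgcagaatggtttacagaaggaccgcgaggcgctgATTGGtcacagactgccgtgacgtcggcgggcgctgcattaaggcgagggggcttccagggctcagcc
*Lhx4*, chr1:155742028-155742277, minus strand: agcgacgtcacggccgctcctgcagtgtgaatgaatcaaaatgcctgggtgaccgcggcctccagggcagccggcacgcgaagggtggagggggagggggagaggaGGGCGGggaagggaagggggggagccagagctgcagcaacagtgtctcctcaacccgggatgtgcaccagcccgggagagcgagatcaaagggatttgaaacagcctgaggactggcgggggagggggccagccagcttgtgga
*Lmx1b*, chr2:33641099-33641348, minus strand: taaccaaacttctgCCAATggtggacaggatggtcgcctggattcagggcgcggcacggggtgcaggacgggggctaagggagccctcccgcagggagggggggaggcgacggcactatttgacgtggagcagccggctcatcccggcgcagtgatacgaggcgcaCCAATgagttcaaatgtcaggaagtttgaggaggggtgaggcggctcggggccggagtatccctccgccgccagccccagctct
*Lhx6*, chr2:36105409-36105658, minus strand: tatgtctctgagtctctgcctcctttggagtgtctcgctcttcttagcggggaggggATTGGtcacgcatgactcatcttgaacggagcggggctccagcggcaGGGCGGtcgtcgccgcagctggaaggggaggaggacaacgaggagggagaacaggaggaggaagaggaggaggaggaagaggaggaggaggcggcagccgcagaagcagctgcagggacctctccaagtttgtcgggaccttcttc
For the printed windows, bases just after the start were found in an annotated transcript of *Lhx1*, *Lhx4* and *Lhx6*, but not of *Lmx1b*. RefSeq listed 13 starts for 9 of the 10 genes. CCAAT stood in 6 of the 13 windows and in 33.8% of all 32851 windows of the same length, and GGGCGG in 7 of 13 and in 32.7% of all. TATAAA stood in 1 of 13, at a start of *Lhx3*, and in 12.4% of all. TAATTA, a site that LIM homeodomains can bind, was found in 0 of 13 and in 4.84% of all, which says only that these letters are not in these windows. The windows held 46.0 to 72.8% G or C, against a mean of 53.2% over all. The 4 windows printed share neither motif as a set. *Lhx1* and *Lmx1b* hold CCAAT, *Lhx4* holds GGGCGG, and *Lhx6* holds both.

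*Lhx1* and *Lhx5* are close relatives that mark, among others, GABAergic neurons of midbrain and hindbrain, Purkinje cells of the cerebellum and Cajal-Retzius cells. *Lhx1* (ENSMUSG00000018698, chromosome 11, 84409110 to 84416361, minus strand in the coordinates of the deposited table) was at 57.8, 70.0, 53.2 and 59.5 CPM in CDD replicates 1 to 4 and at 46.3, 51.4, 49.0 and 49.7 CPM in ND replicates 1 to 4. The lowest CDD brain was above the highest ND brain, though by less than the range of the ND brains. The mean was 60.1 ± 7.14 CPM in CDD and 49.1 ± 2.14 CPM in ND (SD, n = 4), a difference of 22.4%. The fitted log2 fold change of CDD over ND was 0.29 (SE 0.068), and 0.21 (SE 0.057) without CDD replicate 2. *Lhx1* was called in 6 of the 8 fits that leave out 1 brain, and not without ND replicate 1 (0.27) or ND replicate 3 (0.29).

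*Lhx5* (ENSMUSG00000029595, chromosome 5, 120569764 to 120579288, plus strand) was at 44.3, 49.0, 39.8 and 41.4 CPM in the CDD brains and at 46.1, 42.2, 37.3 and 36.4 CPM in the ND brains. The diets overlapped broadly, and ND replicate 1 was higher than 3 of the 4 CDD brains. The log2 fold change was 0.11 (SE 0.078) with all brains and 0.05 (SE 0.076) without CDD replicate 2. The ratio of *Lhx1* to *Lhx5* CPM was 1.38 ± 0.0659 in CDD and 1.23 ± 0.16 in ND brains, and the ratios overlapped. A gap of 82 bases lies between the start of *Lhx1* and the start of the long noncoding RNA *Lhx1os* on the opposite strand, a neighbour named after its values were seen. *Lhx1os* was at 25.2 ± 2.77 CPM in CDD and 22.4 ± 1.18 CPM in ND, with overlap between the diets, a log2 fold change of 0.17 (SE 0.0745) and an adjusted p = 0.166 by edgeR. The gene models do not overlap, and whether reads were counted by strand is not given in the sources used here.

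*Lhx2* maintains progenitors of the cerebral cortex and is needed for the eye and hippocampus. *Lhx2* (ENSMUSG00000000247, chromosome 2, 38229293 to 38259745, plus strand) was at 228.9, 214.7, 236.3 and 231.6 CPM in the CDD brains and at 204.05, 228.2, 199.3 and 198.2 CPM in the ND brains. A single ND brain, replicate 2, lay among the CDD brains, and the other ND brains were below all of them. The means were 227.9 ± 9.28 and 207.4 ± 14.1 CPM, and the log2 fold change was 0.14 (SE 0.050), or 0.16 (SE 0.055) without CDD replicate 2. It was not called in either fit, but was called without ND replicate 2 (0.19).

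*Lhx6* and *Lhx8* act downstream of *Nkx2-1* in the medial ganglionic eminence (MGE), *Lhx6* in interneurons that migrate to the cortex and *Lhx8* in cholinergic neurons of the basal forebrain and striatum. *Lhx6* (ENSMUSG00000026890, chromosome 2, 35971965 to 35995420, minus strand) was at 59.6, 50.8, 66.2 and 64.2 CPM in the CDD brains and at 68.4, 70.6, 74.5 and 68.1 CPM in the ND brains. All 4 CDD brains were below all 4 ND brains, and CDD replicate 2 was the lowest of all. The means of 60.2 ± 6.86 and 70.4 ± 2.93 CPM correspond to a log2 fold change of -0.22 (SE 0.067). Without CDD replicate 2 the value was -0.15 (SE 0.053), which did not pass the threshold. *Lhx6* was called in 2 of the 8 fits that leave out 1 brain each, those without CDD replicate 3 and without CDD replicate 4. In the other 6 its log2 fold change lay between -0.24 and -0.15.

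*Lhx8* (ENSMUSG00000096225, chromosome 3, 154011931 to 154036296, minus strand) was at 16.0, 12.9, 14.3 and 14.7 CPM in the CDD brains and at 11.2, 13.1, 11.9 and 11.3 CPM in the ND brains. The overlap rests on CDD replicate 2, the lowest CDD brain, and ND replicate 2, the highest ND brain. The log2 fold change was 0.28 (SE 0.082) and 0.34 (SE 0.082) without CDD replicate 2, and *Lhx8* was called in 3 of the 8 fits that leave out 1 brain. It was not called without CDD replicate 1 (0.24), CDD replicate 4 (0.27), ND replicate 1 (0.26), ND replicate 3 (0.28) or ND replicate 4 (0.26). The 2 MGE genes thus differed between the diets in opposite directions. The ratio of *Lhx6* to *Lhx8* CPM was 3.73, 3.95, 4.62 and 4.37 in the CDD brains and 6.09, 5.39, 6.27 and 6.01 in the ND brains. This ratio separated the diets in full, including CDD replicate 2, with means of 4.17 ± 0.406 and 5.94 ± 0.381 (SD, n = 4). The ratio was computed from the same counts on which the genes were chosen, and is a description. It sets a gene called lower in CDD over one called higher. The other ratios computed, *Lhx1* to *Lhx5*, *Isl1* to *Isl2*, *Lmx1b* to *Lmx1a* and *Lhx2* to *Lhx9*, all overlapped between the diets.

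*Isl1* is used by motor neurons, sensory neurons, striatal projection neurons and forebrain cholinergic neurons, and its relative *Isl2* mainly by motor neurons, sensory neurons and retinal ganglion cells. *Isl1* (ENSMUSG00000042258, chromosome 13, 116434817 to 116446225, minus strand) was at 46.2, 40.3, 45.7 and 47.1 CPM in the CDD brains and at 41.7, 42.2, 41.3 and 42.3 CPM in the ND brains. The ND brains lay within 1 CPM of each other, 3 CDD brains were above all of them, and CDD replicate 2 was below all of them. The log2 fold change was 0.10 (SE 0.055) and 0.15 (SE 0.052) without that brain, and neither passed the threshold.

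*Isl2* (ENSMUSG00000032318, chromosome 9, 55445956 to 55453464, plus strand) was scarce, at 1.06, 1.25, 0.79 and 0.332 CPM in the CDD brains and 0.965, 0.782, 0.781 and 0.812 CPM in the ND brains. Both the highest and the lowest brain had received CDD, so the CDD brains surrounded the ND brains. The log2 fold change of 0.04 had an SE of 0.30, and it was -0.20 (SE 0.32) without CDD replicate 2, so no direction can be given at this depth.

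*Lhx3* and *Lhx4* are a closely related pair that acts in motor neurons, V2 interneurons and the pituitary. *Lhx4* (ENSMUSG00000026468, chromosome 1, 155573777 to 155627430, minus strand) was at 3.47, 4.40, 2.37 and 2.38 CPM in the CDD brains and at 1.43, 1.53, 1.94 and 1.16 CPM in the ND brains. The CDD brains were all higher, with 2 of them well above the other two. The means were 3.16 ± 0.979 and 1.52 ± 0.322 CPM, a difference of 108%, and the log2 fold change of 1.05 (SE 0.21) was the largest of the 9 members tested. It was 0.85 (SE 0.20) without CDD replicate 2. Of the 9 members tested, *Lhx4* alone was called in all 8 fits that leave out 1 brain. Those fits reuse the values on which the genes were chosen, so this count is a description.

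*Lhx3* (ENSMUSG00000026934, chromosome 2, 26090224 to 26098301, minus strand) had 0, 50, 3 and 7 counts in the CDD brains and 0, 1, 4 and 12 counts in the ND brains. CDD replicate 2 held 64.9% of all its counts, at 1.45 CPM, while the other brains held at most 0.348 CPM. Brains of both diets had a count of 0, which allows up to 3 counts. A fit with no filter on low counts gave a log2 fold change of 1.74 (SE 1.54), which was not called. Without CDD replicate 2 the mean was 0.0936 ± 0.108 CPM in CDD (n = 3) and 0.124 ± 0.157 CPM in ND, so no difference of *Lhx3* was detectable at this depth. Of 8 listed pituitary genes found, 3 had at most 3 counts in every brain (*Pou1f1*, *Hesx1*, *Prl*), 5 were tested and 0 were called, and the list summed to 15.2 to 16.1 CPM in CDD and 13.0 to 16.4 CPM in ND brains.

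*Lmx1b* specifies serotonergic neurons, takes part in midbrain dopaminergic and dorsal horn neurons, and helps to set up the organizer at the border of midbrain and hindbrain. *Lmx1b* (ENSMUSG00000038765, chromosome 2, 33450977 to 33530620, minus strand) was at 14.9, 23.7, 10.9 and 13.1 CPM in the CDD brains and at 10.2, 9.07, 10.2 and 9.45 CPM in the ND brains. All CDD brains were higher, CDD replicate 3 only slightly and CDD replicate 2 by far. The mean of 15.6 ± 5.60 CPM in CDD stood against 9.75 ± 0.587 CPM in ND. With all brains the log2 fold change of 0.68 (SE 0.24) did not pass the threshold. Without CDD replicate 2 it was smaller, 0.41, but its SE was 0.10 and it passed, as it did without CDD replicate 3 (0.82). This brain thus raised the mean and the spread together.

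**Figure D2:**
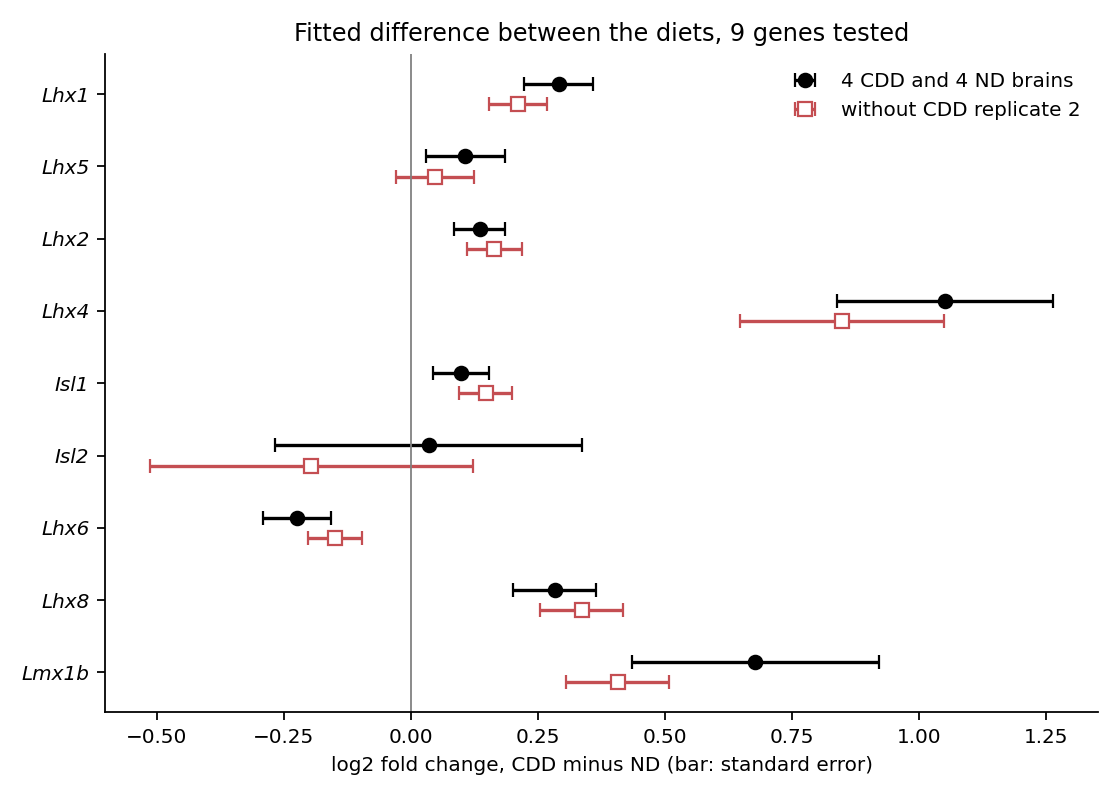
Fitted log2 fold change of CDD over ND (x axis) with its standard error for the 9 genes tested, with all 8 brains (filled circles) and without CDD replicate 2 (open squares). Leaving out that brain moved *Lmx1b* from 0.68 to 0.41 and *Lhx6* from -0.22 to -0.15, and *Isl2* lies across 0.

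Levels between genes were compared as deposited FPKM, which divides by gene length. *Lhx2* was the most abundant at 49.3 ± 3.61 FPKM (SD over 8 brains) and stood above 96.1% of the genes tested. Next came *Lhx5* at 15.6 ± 1.61, *Lhx6* at 13.5 ± 1.5, *Lhx1* at 13.3 ± 1.89 and *Isl1* at 10.9 ± 0.666 FPKM, and neighbours in this order overlapped between brains. *Lhx8* at 5.18 ± 0.676 and *Lmx1b* at 2.54 ± 0.973 FPKM overlapped each other and were apart from *Isl1*. *Lhx4* at 0.405 ± 0.192, *Isl2* at 0.383 ± 0.120 and *Lhx3* at 0.0910 ± 0.160 FPKM were the lowest, with overlap among them and none with *Lmx1b*.

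**Figure D3:**
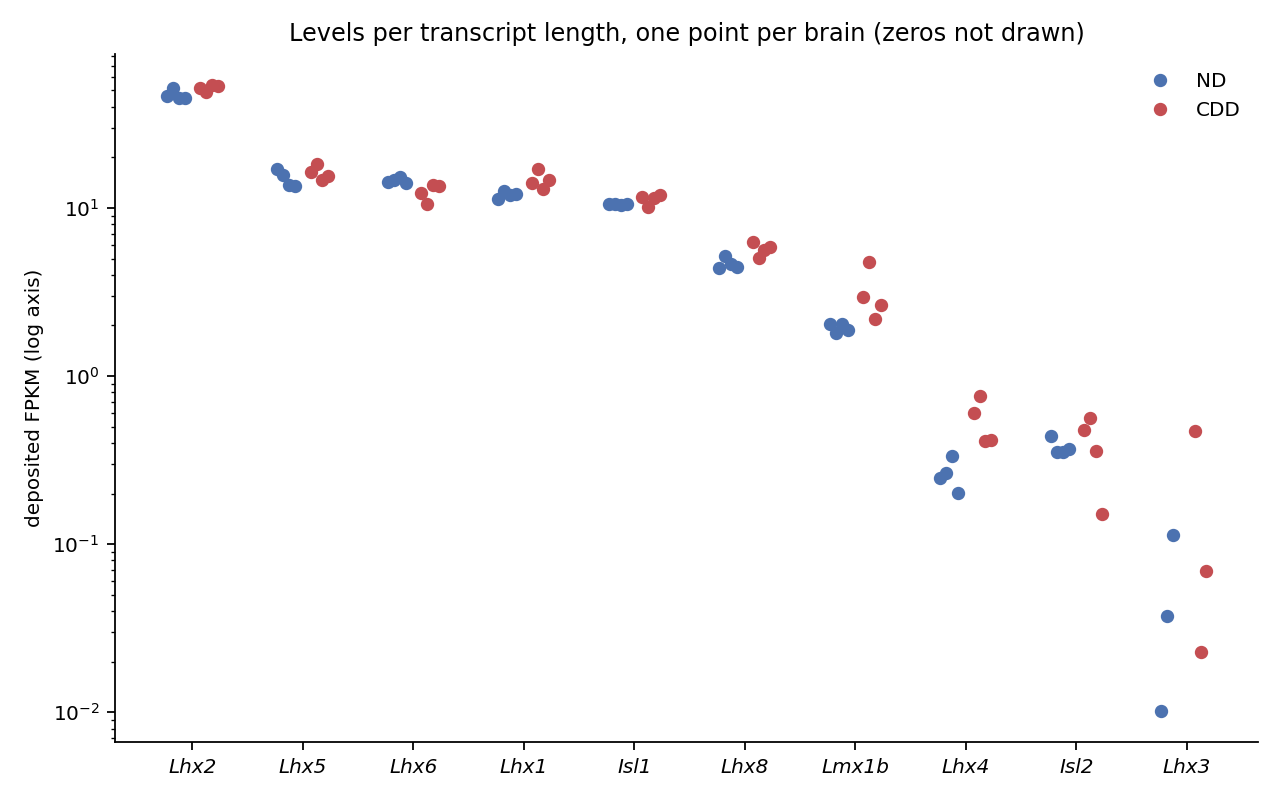
Deposited FPKM (log axis) of the 10 genes, ordered by their mean, with 1 point for each ND (blue) and CDD (red) brain and zeros not drawn. Gaps between the brains' ranges follow *Lhx2*, *Isl1* and *Lmx1b*, and the other neighbours overlap.

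Within a diet, many correlations between members changed when CDD replicate 2 was left out. After the mean of each diet was taken away, log2 CPM of *Lhx6* and *Lmx1b* had a Pearson correlation of -0.90 over the 8 brains and -0.53 over the 7 without CDD replicate 2. The correlation of *Isl1* with *Lmx1b* went from -0.88 to 0.08, that of *Isl1* with *Lhx6* from 0.81 to -0.38, and that of *Lhx1* with *Lmx1b* from 0.83 to 0.27. That of *Lhx1* with *Isl1* turned from -0.74 to 0.72, and that of *Lhx1* with *Lhx8* from -0.32 to 0.64. Those of *Isl1* with *Isl2* (-0.66 and -0.64), of *Lhx4* with *Lmx1b* (0.80 and 0.62) and of *Lhx2* with *Lhx8* (0.74 and 0.62) moved less. All genes of a brain share its library and depth, and brains may share a litter, so these values describe 8 libraries.

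**Figure D4:**
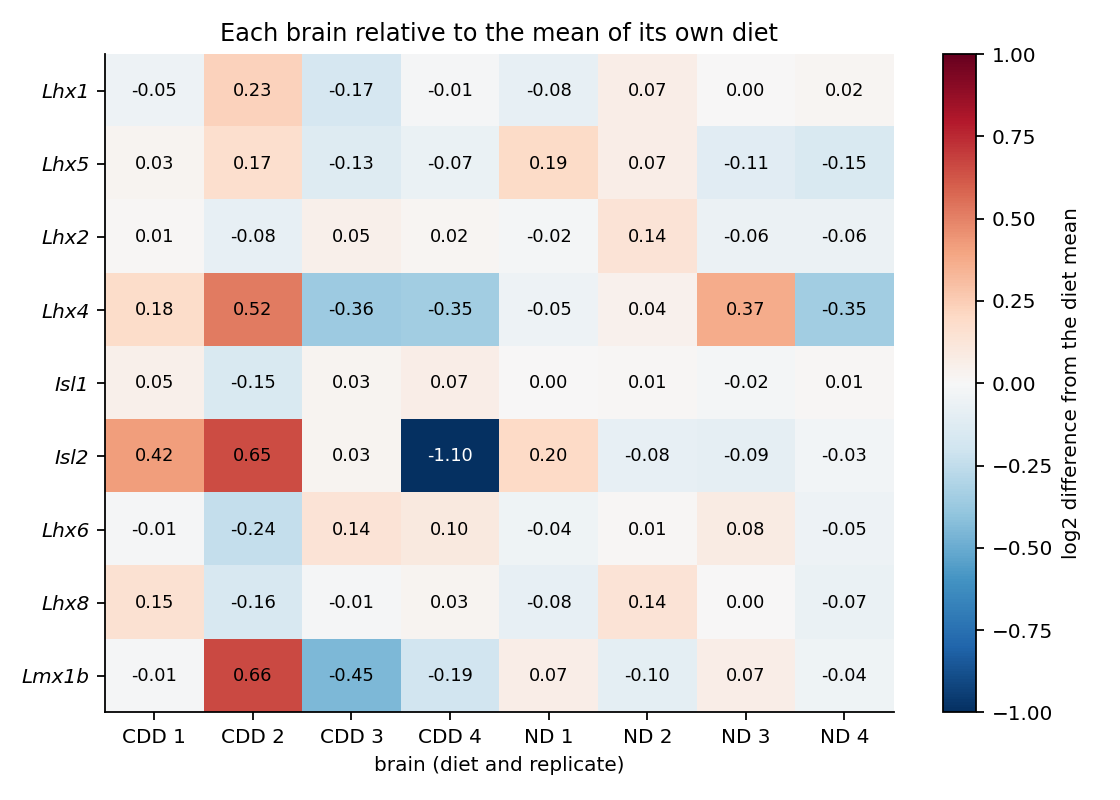
Difference of each brain from the mean of its own diet, in log2 CPM, for the 9 genes tested (rows) in the 8 brains (columns), with the value written in each cell. The column of CDD replicate 2 is positive for *Lhx1*, *Lhx5*, *Lhx4*, *Isl2* and *Lmx1b* and negative for *Lhx2*, *Isl1*, *Lhx6* and *Lhx8*, and the widest values belong to *Isl2* in CDD replicate 4 and *Lmx1b* in CDD replicate 2.

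The same measure was used to find the 2 genes most like each member among 15880 candidates with a mean of at least 1 CPM. For *Lmx1b* these were *Lamp5* (r = 0.995, or 0.969 without CDD replicate 2) and *Meis1* (0.991 and 0.947). For *Lhx2* they were *Lrp5* (0.990 and 0.989) and *Tcf3* (0.982 and 0.980), for *Lhx5* *Vhl* (0.993 and 0.991) and *Loxl2* (0.983 and 0.982), and for *Lhx8* *Ptpru* (0.979 and 0.978) and *Tyms* (0.977 and 0.966). For *Lhx1* they were *Gpr157* (0.959 and 0.859) and *Tmem269* (0.954 and 0.972), for *Lhx4* *Rsph4a* (0.963 and 0.969) and *Aldh2* (0.962 and 0.931), and for *Lhx6* *Gm42778* (0.987 and 0.941) and *Zfp366* (0.976 and 0.924). *Isl1* was most like *Ankrd27* (0.989 and 0.810) and *Rpl23a* (0.977 and 0.473), and *Isl2* most like *S100a11* (0.990 and 0.987) and *Csnk2b* (0.987 and 0.985). The closest match of each of the 9 genes had a correlation of at least 0.959, so a high value set no gene apart, and the values only rank likeness in these libraries.

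The LIM homeobox genes that are not members are *Lhx9* and *Lmx1a*. *Lhx9*, a relative of *Lhx2* in thalamus and midbrain, was at 120.3 ± 2.90 CPM in CDD and 111.1 ± 3.31 CPM in ND (n = 4), with no overlap, and its log2 fold change of 0.12 (SE 0.0396) was not called (adjusted p = 0.0757 by edgeR). *Lmx1a*, a relative of *Lmx1b* in the roof plate and in dopaminergic progenitors, rose, with 10.8 ± 1.56 CPM in CDD against 8.07 ± 0.690 CPM in ND, a log2 fold change of 0.42 (SE 0.105) and an adjusted p = 0.0180 by edgeR. The diets overlapped, and it was called in 5 of the 8 fits that leave out 1 brain. Its value without CDD replicate 2 was again 0.42, whereas that of *Lmx1b* moved from 0.68 to 0.41.

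Transcripts of genes for proteins that bind LIM domains or the LIM adaptor were followed as well. Of 10 co-factor genes tested, 0 rose and 4 fell, where 4.24% of all genes tested were called higher and 4.59% lower. Their median log2 fold change was -0.10 against 0.00 over all genes tested. This list was chosen with earlier results of these data known, so its calls are given as a description. *Ldb2*, an adaptor, fell from 36.9 ± 1.79 CPM in ND to 29.6 ± 2.90 CPM in CDD (log2 fold change -0.32, SE 0.0677, adjusted p = 0.00800 by edgeR). The LIM-only gene *Lmo4*, expressed in cortex, fell from 97.01 ± 3.90 to 83.6 ± 2.48 CPM (-0.21, SE 0.0433, adjusted p = 0.00545 by edgeR). *Ssbp4* (-0.23, SE 0.055, adjusted p = 0.0165 by edgeR) and *Ssbp2* (-0.14, SE 0.0431, adjusted p = 0.0431 by edgeR) encode proteins that stabilize the adaptor. All 4 had no overlap between the diets, and 3 of them were also called without CDD replicate 2, *Ssbp2* being the exception (-0.15). *Ldb2* and *Lmo4* were called in all 8 fits that leave out 1 brain, *Ssbp4* in 7 and *Ssbp2* in 2. *Ldb1*, the most general adaptor, was at 335.9 ± 16.9 CPM in CDD and 335.1 ± 10.1 CPM in ND. *Ssbp3*, *Rlim*, *Lmo1*, *Lmo2* and *Lmo3* had log2 fold changes between -0.13 and 0.07 and were not called.

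Neurons that use these factors were followed by lists of their other genes. These lists were also chosen with earlier results of these data known, so their calls are a description. They stand beside 4.24% of all genes tested called higher and 4.59% called lower. For the lineage of *Lhx6* and *Lhx8*, 12 MGE genes were tested. *Nkx2-1*, their upstream regulator (54.5 ± 3.86 CPM in CDD, 46.3 ± 2.85 CPM in ND), *Sox6* (107.4 ± 13.0 and 87.3 ± 3.77 CPM) and *Gbx2* (10.9 ± 2.18 and 7.98 ± 0.795 CPM) rose, and the interneuron peptide gene *Sst* fell (40.3 ± 5.36 and 52.6 ± 3.64 CPM). Their log2 fold changes were 0.24 (SE 0.0589), 0.30 (SE 0.0685), 0.45 (SE 0.121) and -0.38 (SE 0.0832), and *Gbx2* was not called without CDD replicate 2 (0.30). *Sst* was called in all 8 fits that leave out 1 brain, *Nkx2-1* and *Sox6* in 5 and *Gbx2* in 4. The other 8, including *Satb1*, *Erbb4* and *Cxcr4*, did not pass, and the median of the list was 0.05.

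Forebrain progenitor factors, which share the cortical neuroepithelium with *Lhx2*, rose in 5 of 8 genes tested and fell in 0. They were *Gli3* (log2 fold change 0.45, SE 0.0603), *Nr2e1* (0.35, SE 0.0764), *Dmrta2* (0.33, SE 0.0674), *Emx2* (0.26, SE 0.0771) and *Pax6* (0.25, SE 0.0515), and *Lhx2* at 0.14 was below each of them. All 5 were called without CDD replicate 2 as well. *Gli3*, *Dmrta2* and *Pax6* were called in all 8 fits that leave out 1 brain, *Nr2e1* in 6 and *Emx2* in 2, and the diets overlapped for the latter pair. *Emx1* and *Fezf2* were not called. The progenitor markers *Nes*, *Vim*, *Mki67* and *Top2a* also rose, 4 of 9 tested, and of 9 neuron markers 0 rose and *Snap25* fell (-0.23, SE 0.0604). When CDD replicate 2 was left out, the same 4 progenitor markers were called, *Snap25* was at -0.27, and *Stmn2* was also called lower (-0.18).

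For motor neurons, the classical users of *Isl1*, *Isl2*, *Lhx3* and *Lhx4*, 8 of 9 genes were tested and 0 were called. Their median log2 fold change was 0.65 with all brains and 0.14 without CDD replicate 2. The list summed to 64.4 CPM in that brain, 20.2 to 26.9 CPM in the other CDD brains and 22.6 to 25.6 CPM in the ND brains. *Tbx20* was at 3.19 CPM in CDD replicate 2, against an ND mean of 0.234 ± 0.102 CPM. *Lhx4* was called with and without that brain, and none of these 8 genes was called in either fit.

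Of 8 V2 interneuron genes 7 were tested. *Shox2* (log2 fold change 0.28, SE 0.0761) and *Tal1* (0.22, SE 0.0587) were among those that rose, and the median of the list was 0.22. Without CDD replicate 2, 0 of 7 passed edgeR's test, with an adjusted p of 0.0855 for *Shox2* and 0.0727 for *Tal1*, and each was called in 4 of the 8 fits that leave out 1 brain. *Tal1* is also a gene of blood cells. The list summed to 150.0 CPM in CDD replicate 2, 124.7 to 130.4 CPM in the other CDD brains and 111.03 to 122.2 CPM in the ND brains. The list of eye and retina genes summed to 48.0 to 53.7 CPM in CDD and 47.1 to 51.1 CPM in ND brains.

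The cholinergic list that goes with *Lhx8* and *Isl1* held 1 called gene among 7 tested. *Ache*, the acetylcholine-degrading enzyme, fell from 24.6 ± 2.43 to 18.2 ± 3.33 CPM (log2 fold change -0.43, SE 0.117). It was called in 4 of the 8 fits that leave out 1 brain, and the diets overlapped. *Chat*, *Slc18a3* and *Slc5a7*, which make, load and resupply the transmitter, had values of 0.48, 0.50 and 0.39 and were not called. *Slc18a3* was at 5.51 CPM in CDD replicate 2 and turned to -0.36 without it. The median of the list was 0.35 with all brains and 0.10 without that brain. Of 9 striatal genes, which go with *Isl1*, *Ebf1* rose (0.24, SE 0.0643) and *Ikzf1* fell (-0.43, SE 0.0963), and *Ebf1* was not called without CDD replicate 2 (0.19). *Ebf1* was called in 1 of the 8 fits that leave out 1 brain, with overlap between the diets, and *Ikzf1* in 7.

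For *Lmx1b*, 0 of 9 serotonergic genes were called, with a median log2 fold change of 0.11, or -0.02 without CDD replicate 2. In that fit *Slc18a2*, the monoamine transporter of vesicles and a gene of the dopaminergic list too, was called higher (0.22). *Fev* and *Tph2*, which mark the lineage most closely, were at 1.23 ± 0.363 and 2.34 ± 0.596 CPM in CDD and 1.09 ± 0.307 and 2.72 ± 0.173 CPM in ND. Of 11 dopaminergic genes, 0 rose and *Aldh1a1* (-1.02, SE 0.165) and *Slc6a3* (-0.58, SE 0.166) fell, and the median was 0.01. In the fit that left out CDD replicate 2, *Slc6a3* was not called (-0.52), *Aldh1a1* was (-1.05), and *Slc18a2* was called higher. Of 5 dorsal sensory genes 0 were called, with all 5 highest in CDD replicate 2 and *Tlx3* called lower without it (-1.02). For *Lhx1* and *Lhx5*, 7 cerebellar GABAergic genes were tested. *Car8*, a Purkinje cell gene, fell from 8.44 ± 0.644 to 4.82 ± 0.312 CPM (-0.81, SE 0.10), and was called in all 8 fits that leave out 1 brain. *Pcp4*, also of Purkinje cells, was lower in every CDD brain than in any ND brain but was not called (-0.55, SE 0.167, adjusted p = 0.0527 by edgeR). *Skor2* and *Calb1*, of the same cells, had values of 0.11 and -0.04 and were not called. Of 10 sensory ganglion genes, which go with *Isl1* and *Isl2*, 0 were called, and without CDD replicate 2 the glial gene *Sox10* was called lower (-0.83, against -0.66 with all brains).

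**Figure D5:**
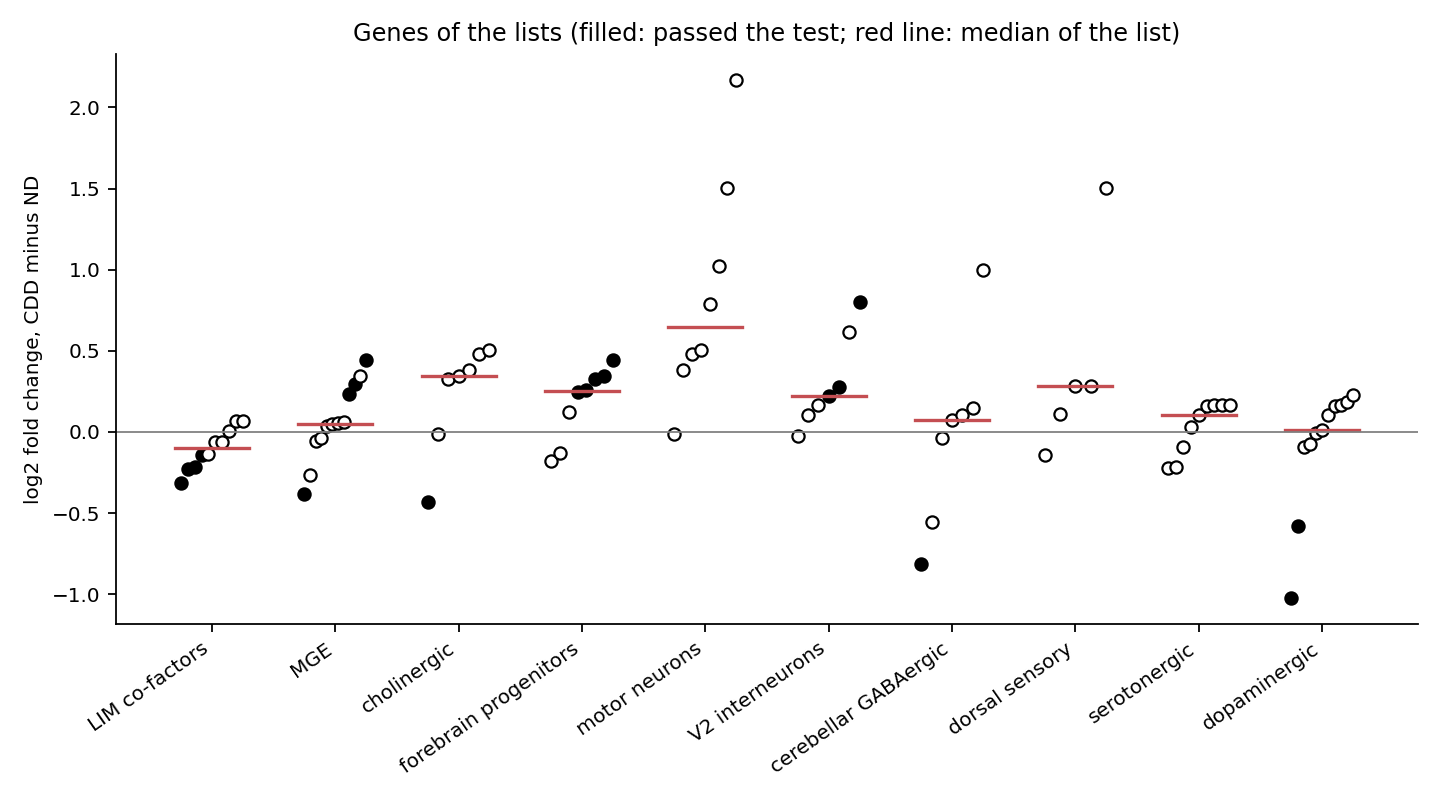
Log2 fold change of CDD over ND (y axis) for the tested genes of 10 lists (x axis), with called genes filled and the median of each list as a red line. Medians range from -0.10 for LIM co-factors to 0.65 for motor neurons, where none of the 8 genes was called, and forebrain progenitor factors hold 5 filled points above 0.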

How the data were processed

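Whole-brain poly-A RNA of 4 CDD and 4 ND embryos (E14.5, WT) was sequenced. Raw counts of reads, not normalized, were deposited by the authors for each gene and brain, beside deposited FPKM values, which scale by depth and gene length. The submitters' processing notes name HISAT2 2.0.5, featureCounts 1.5.0-p3 and DESeq2 1.20.0, without roles. The genome build is not given in the sources used here, so coordinates of the deposited table and of RefSeq (GRCm38.p6) were not mixed. Deposited columns with the authors' own fold changes and p-values, and shorter lists cut from the same table, were not used.

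Samples were grouped by diet as labelled. In edgeR 4.0.16, filterByExpr kept 19367 genes, TMM set the scaling, and the robust quasi-likelihood test had diet as its term, with an adjusted p (Benjamini-Hochberg) of 0.05 as the threshold. The median log2 fold change of all genes was 0.00. CPM values use the TMM-scaled library size, and within-diet deviations use log2 CPM with a prior count of 2. Motifs were searched on both strands. Counts cover sampling error only, and spread between brains adds to it.

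The members and the lists of other genes were chosen with earlier results of these data known. Named beside the members were *Lhx9*, *Lmx1a*, all co-factor genes, up to 4 called genes of each lineage list by smallest p, and the 2 genes most like each member. Other genes of the lists, and *Lhx1os*, were named after their values were seen. *Drgx*, *Cga*, *Gh* and *Rpe65* were among the listed genes not found in the table by name. Of 11 listed pituitary genes, 8 were found. Some genes of the lists are counted but not reported here by name. Alternatives were DESeq2 1.42.0, limma-voom (limma 3.58.1), other scaling, other filters, a replicate block, log2(FPKM + 1), another prior count, and leaving out each brain. Software was R 4.3.3 and Python 3.11.15 with matplotlib 3.10.9, NumPy 2.4.6, pandas 2.3.3 and SciPy 1.17.1.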

Additional observations from a re-analysis of the deposited data

Results flagged for a closer look

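In 54 groups of 4 brains checked (each member, other LIM gene and co-factor, and 5 list sums, within a diet), 4 held a brain far from the other 3 by Dixon's criterion, where chance would give about 2.7. *Lhx3* in CDD replicate 2 was at 1.45 CPM, against 0 to 0.211 CPM in the other CDD brains. *Isl2* in ND replicate 1 was at 0.965 CPM, against 0.781 to 0.812 CPM. *Ldb2* in ND replicate 4 was at 39.6 CPM, against 35.8 to 36.2 CPM. The summed *Hox* genes in CDD replicate 2 were at 140.4 CPM, against 0.163 to 2.87 CPM.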

How the results depend on the processing

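*Lhx4* was called under each of the 8 fits that leave out a brain and under DESeq2, limma-voom, RLE and upper-quartile scaling, both filters and the block, with log2 fold changes between 0.85 and 1.19. The number of genes called was 1710, and between 471 and 2495 when 1 brain was left out, lowest without ND replicate 3 (471), ND replicate 4 (615) and ND replicate 1 (688). It was 2151 with DESeq2 and 2374 with no filter. Members called higher were 3, 2 with limma-voom (*Lhx8* no longer), and between 1 and 4 without 1 brain. Members called lower were 1 (*Lhx6*), 0 with RLE scaling, 0 with limma-voom, and between 0 and 1 without 1 brain. Genes called in the lists of LIM genes, co-factors and lineages were 23 of 86 tested, and between 8 and 28 without 1 brain, lowest without ND replicates 3 (8), 1 (11) and 4 (12). The cause was not tested. *Isl2* changed sign with limma-voom (-0.11) and lay between -0.20 and 0.29 without 1 brain. *Lmx1b* was called by DESeq2 (0.69). On log2(FPKM + 1), which understates low genes, *Lhx4* was 0.29. Deviations of same-numbered CDD and ND brains had correlations of 0.105, -0.133, 0.117 and 0.232. Brains with different numbers were not compared, so these values cannot decide whether replicate numbers pair the brains. With the replicate number as a block (replicate block) 1812 genes were called, 2 members were called higher (*Lhx8* no longer) and 1 lower, 22 list genes were called, and the log2 fold change of *Isl2* was -0.026.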
